A study of Arabidopsis thaliana with 24 samples.

Results

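JMT, BSMT1 and ORA47 are 3 Arabidopsis thaliana genes linked to jasmonate, and each was measured by 1 of the 22746 non-control probe sets on the array. They are 3 of 13286 genes to which a probe set could be matched singly. The table of probe genes pairs a single probe set with each, and the genes were selected on values from these same arrays, in which earlier results had named them. JMT (AT1G19640) had been named for a lower signal in CBF3 than in Ws leaves at both salt levels. BSMT1 (AT3G11480) had been named for a higher signal in salted than in unsalted Ws leaves, and ORA47 (AT1G74930) for a higher signal in SOS1 than in glabrous Columbia leaves without salt. By the naming rule of that earlier work, the salt comparison of Col for JMT and that of M6PR for ORA47 were counted as used too. For these comparisons, and for any that share an array with them, values are given below as a description with no test. The earlier results were known in part, so the other comparisons may not be fully independent of the choice.

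Leaf RNA was hybridised to 24 Affymetrix arrays in 12 groups of 2 replicates, each a pool of leaves from at least 15 seedlings at 20 days after sowing, grown in replicate pots. The transgenic groups were CBF3, which overexpresses a cold-response transcription factor in Wassilewskija (Ws), M6PR, which carries a mannose-6-phosphate reductase gene in Columbia (Col-0, here Col), and SOS1, which overexpresses a sodium/proton antiporter in glabrous Columbia (Col(gl), here Colgl). Their wild types were Ws, Col and Colgl. Every genotype was grown with 100 mM NaCl, reached in steps of 50 mM from day 14, and with 0 mM NaCl. The sources used here give neither the promoters of the transgenes nor the number of independent lines, and no probe set is paired with CBF3, M6PR or SOS1, so the labels were not checked against those genes. A group is named below by genotype and salt, as in CBF3_100mM. In such bulk leaf RNA, fewer cells of a type and less RNA per cell cannot be told apart.

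Jasmonates are lipid-derived hormones made in the chloroplast and the peroxisome. Their active form is perceived by the receptor COI1, which leads to loss of JAZ repressors and frees MYC transcription factors to act on wound and defence genes. JMT is a methyltransferase that turns jasmonic acid into volatile methyl jasmonate. BSMT1, of the same SABATH enzyme family, methylates salicylic and benzoic acid, and methyl salicylate is a volatile of stressed leaves. ORA47 is an AP2/ERF transcription factor of the DREB group that responds early to jasmonate and wounding, and its overexpression is known to raise genes of jasmonate synthesis.

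All values are log2 signals as the authors deposited them. A difference of 1 unit is a doubling, and errors of differences are standard errors from 1 limma fit over all 24 arrays, which estimates 1 spread for all groups together. A probe set was called at a Benjamini-Hochberg adjusted p below 0.05 over all 22746 probe sets. With only 2 arrays in a group, precision is limited by their number. Over all probe sets, the difference between a group's replicate arrays had a standard deviation (SD) of 0.17 in Colgl_0mM, the lowest, and up to 0.63 in SOS1_0mM. Replicate 1 of Ws_100mM and of Col_100mM stood apart in their controls, with a dap spike-in signal of 6.73 and 7.11 against 9.50 to 11.3 on the other 22 arrays. Tested and called results that rest on those arrays are given below with and without them. The leaf genes RCA (Rubisco activase) and PRK (phosphoribulokinase) read 13.4 to 13.9 and 12.5 to 13.0 over all arrays. Of the root list, EXPA7 (a root-hair expansin) read 4.22 to 5.17, while PYK10 (a root beta-glucosidase) ranged from 3.68 to 9.92.

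**Figure D1:**
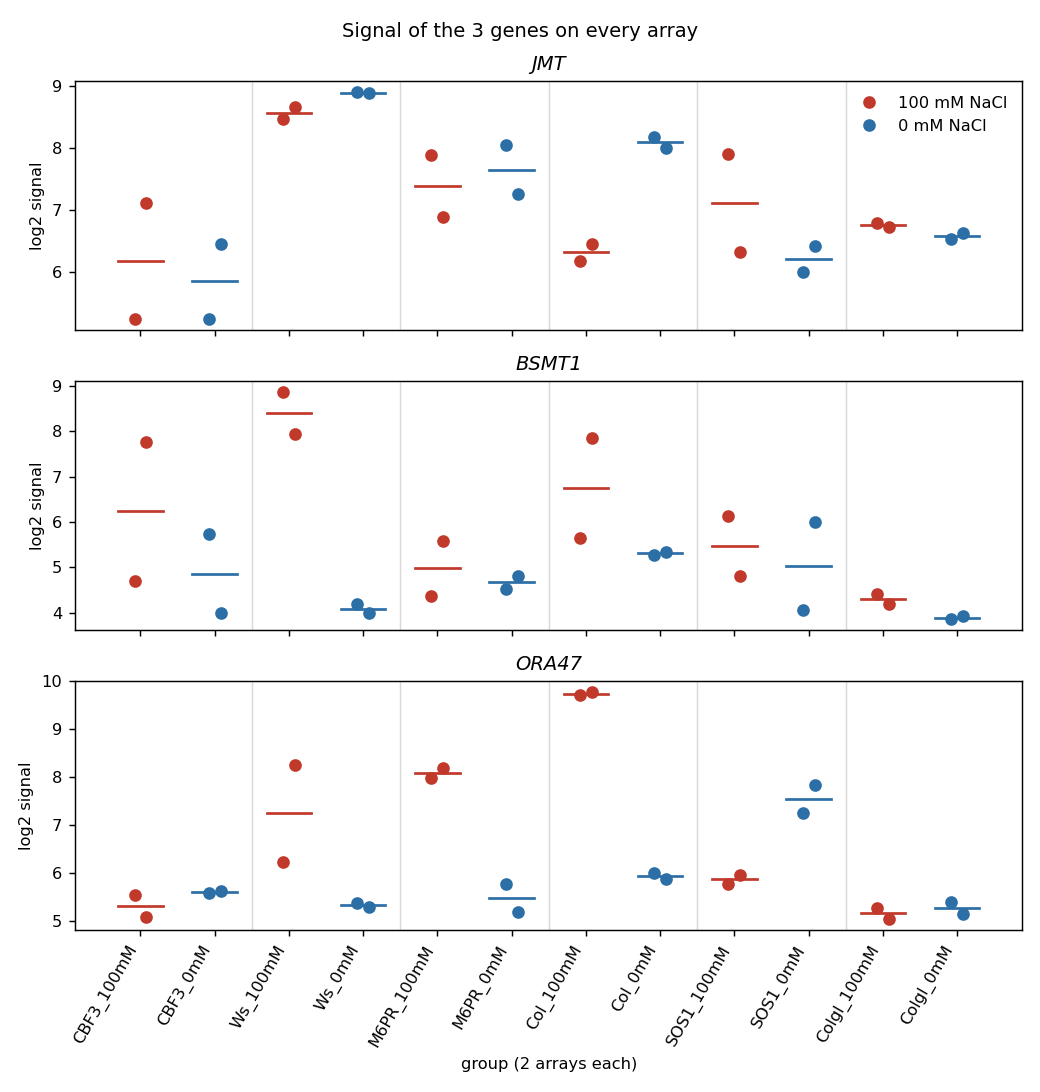
Log2 signal of JMT, BSMT1 and ORA47 (one panel each) on every array, by group; dots are the 2 arrays of a group, bars their mean, red 100 mM NaCl and blue 0 mM NaCl. JMT was highest in Ws_0mM (mean 8.90), BSMT1 in Ws_100mM (8.41) and ORA47 in Col_100mM (9.74).

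ORA47 gave the widest span of group means, 4.57 log2 units, with a pooled SD of 0.47 between replicates. In Col leaves it read 9.71 and 9.77 with salt, against 6.01 and 5.89 without. In Ws leaves it read 6.23 and 8.26 with salt, against 5.38 and 5.30 without. The groups did not overlap in either wild type, as for 73.6% of all probe sets in Col and 55.5% in Ws, and the salted Ws replicates lay 2.03 units apart. In M6PR it read 7.99 and 8.20 with salt, against 5.77 and 5.20 without, again with no overlap (36.2% of all probe sets).

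The other genotypes did not follow that order. In CBF3 ORA47 read 5.54 and 5.10 with salt, against 5.59 and 5.63 without. In Colgl it read 5.28 and 5.06 with salt, against 5.41 and 5.16 without. SOS1 was lower with salt, at 5.78 and 5.97, against 7.25 and 7.83 without salt. The groups overlapped in Colgl and did not in CBF3 and SOS1, as for 31.0% and 19.9% of all probe sets.

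ORA47 rose with salt in Col by 3.79 ± 0.42 on the log2 scale, a 13.9-fold difference (SE, n = 2 in each group, limma adjusted p = 0.000138, higher on both salted arrays), with a 95% interval of 2.89 to 4.69. It was the 55th largest rise of 22746 probe sets. In that comparison 20.9% of probe sets were called, 10.1% higher and 10.8% lower. With arrays centred on their medians, 1914 probe sets were higher and 4119 lower, against 2302 and 2462 as deposited, and the median change of all probe sets was -0.28 against -0.12. Over its 11 alternatives the ORA47 change ran from 3.63 to 3.85 with adjusted p from 1.7e-06 to 0.00365, and it was 3.83 ± 0.27 without the arrays with a low dap signal. PYK10 read 9.92 and 7.62 in Col_100mM, against 4.30 and 4.22 in Col_0mM, while EXPA7 read 4.44 and 4.25, against 4.72 and 4.82. PYK10 read 6.43 and 7.52 in SOS1_0mM, against 4.11 and 4.01 in Colgl_0mM, but in SOS1_100mM, where ORA47 was low, it also read 7.24 and 6.72, against 3.95 and 3.92 in Colgl_100mM. In CBF3_0mM, again with low ORA47, PYK10 read 5.47 and 5.60. In M6PR_100mM it read 4.85 and 6.61, against 4.46 and 3.84 in M6PR_0mM, and in Ws_100mM it read 6.59 and 3.68, against 3.91 and 3.89 in Ws_0mM. The part of these markers in the ORA47 values was not tested.

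In Ws, ORA47 rose with salt by 1.91 ± 0.42 on the log2 scale (SE, n = 2 in each group, limma adjusted p = 0.0192), and 4.71% of probe sets were called in that comparison, 2.62% higher and 2.09% lower. The size rested on single arrays. It was 2.92 (adjusted p = 7.47e-05) without Ws_100mM replicate 1, one of the low-dap arrays, and 0.89 (adjusted p = 0.0515) without Ws_100mM replicate 2. Without Ws_0mM replicate 1 or 2 the adjusted p was 0.132 or 0.13, and with a separate fit of the Ws background it was 0.138. With centred arrays 533 probe sets were higher and 836 lower in this comparison, against 597 and 475 as deposited.

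Under salt, ORA47 was lower in CBF3 than in Ws. It fell by 1.93 on the log2 scale (SE 0.42, n = 2 arrays per group, limma adjusted p = 0.0205), to 5.32 ± 0.31 in CBF3_100mM, against 7.25 ± 1.44 in Ws_100mM (mean ± SD). Of all probe sets 3.73% were called there, 1.92% lower. The call shares the Ws_100mM arrays with the salt comparison of Ws and depends on the same array. The change was -2.94 (adjusted p = 2.95e-05) without Ws_100mM replicate 1 and -0.91 (adjusted p = 0.0549) without replicate 2. Without CBF3_100mM replicate 1 or 2 the adjusted p was 0.073 or 0.0903, and in a separate fit 0.138. With centred arrays 530 probe sets were higher and 326 lower, against 411 and 437 as deposited.

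Without salt ORA47 differed between CBF3 and Ws by 0.27 ± 0.42 and did not pass (95% interval -0.63 to 1.17). The change of ORA47 with salt within CBF3, -0.29 ± 0.42, did not pass either (95% interval -1.19 to 0.61), in a comparison with 0.00879% of probe sets called. The interaction, that is the salt change in CBF3 minus that in Ws, was -2.20 ± 0.60 (limma adjusted p = 0.222) and did not pass with all arrays. It was -3.21 without the arrays with a low dap signal and -3.21 without Ws_100mM replicate 1 alone. Without Ws_100mM replicate 2 it was -1.18. Each of these refits leaves 1 array in Ws_100mM. In that interaction 0.0703% of probe sets were called. Of the 7 comparisons of ORA47 whose arrays its choice did not use, 3 passed. SOS1 against Colgl with salt was among those that did not, at 0.71 ± 0.42 (95% interval -0.19 to 1.61), where 3.13% of probe sets were called.

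The values that chose ORA47 were 7.25 and 7.83 in SOS1_0mM, against 5.41 and 5.16 in Colgl_0mM, a difference of 2.25 ± 0.42, and the rise with salt in M6PR, 2.61 ± 0.42. Background shares in those comparisons were 1.24% and 0.541% of probe sets. Sharing these arrays, M6PR minus Col was -1.65 ± 0.42 with salt and -0.46 ± 0.42 without, and SOS1 with salt minus without was -1.66 ± 0.42. In the order of its levels ORA47 stood highest in Col_100mM, then M6PR_100mM and SOS1_0mM. Neighbouring groups overlapped in 7 of 11 steps, the same count as for JMT and BSMT1, and the share over all probe sets was not counted. The 6 lowest groups, with means from 5.61 to 5.17, formed an unbroken run of overlapping neighbours. With salt ORA47 lay higher without overlap in 3 genotypes and lower in 2; opposite effects of this kind were seen for 46.4% of all probe sets, and for 26.7% and 21.4% between the lines without and with salt.

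**Figure D2:**
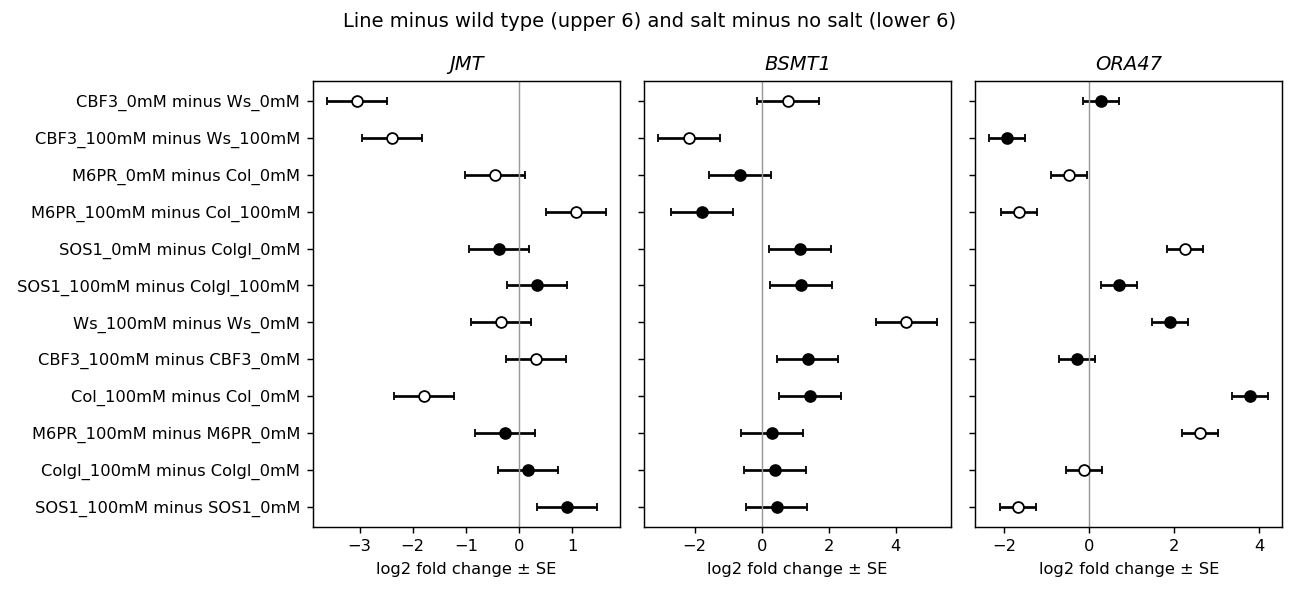
Log2 fold changes (points) with their SE (bars) of each gene in the 6 comparisons of a line with its wild type (upper) and the 6 of salt within a genotype (lower); filled points are comparisons whose arrays the choice of the gene did not use, open points are a description. For ORA47 the filled points of salt in Col (3.79) and in Ws (1.91) lie right of 0 and that of CBF3 against Ws with salt (-1.93) lies left of it.

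JMT, which makes methyl jasmonate, was highest in Ws leaves and lowest in CBF3 leaves. In CBF3 it read 5.24 and 7.11 with salt, against 8.47 and 8.66 in Ws with salt. Without salt it read 5.23 and 6.45 in CBF3, against 8.90 and 8.89 in Ws. The groups did not overlap at either salt level, as for 52.3% of all probe sets with salt and 56.8% without, and the CBF3 replicates lay 1.87 and 1.22 units apart with and without salt while the Ws replicates lay within 0.19.

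These are the values that chose JMT, and they carry no test here. The difference was -3.05 ± 0.57 log2 units without salt, 8.30-fold lower in CBF3, and -2.40 ± 0.57 with salt, 5.26-fold lower, where 6.79% and 3.73% of probe sets were called. With salt it was -3.33 without CBF3_100mM replicate 2 and -1.46 without CBF3_100mM replicate 1. Within both genotypes the difference between salt levels was small, 0.33 ± 0.57 in CBF3 and -0.33 ± 0.57 in Ws.

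In Col leaves JMT was lower with salt, at 6.17 and 6.45, against 8.19 and 8.01 without salt, a difference of -1.78 ± 0.57, or -1.65 without the low-dap arrays, that was also used in the choice. M6PR read 7.89 and 6.89 with salt, against 8.04 and 7.26 without. Under salt M6PR therefore lay above Col without overlap (55.3% of all probe sets), by 1.08 ± 0.57, or 0.94 without the low-dap arrays, and without salt the ranges of M6PR and Col overlapped (-0.45 ± 0.57).

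JMT in Colgl and in SOS1_100mM lay in the middle of the order, and in SOS1_0mM it was 10th of 12. SOS1 read 7.90 and 6.31 with salt, against 5.99 and 6.42 without. Colgl read 6.79 and 6.73 with salt, against 6.54 and 6.63 without. Here the choice used none of the arrays, and limma called JMT in 0 of 6 such comparisons, those within Colgl and SOS1 and the salt change of M6PR, and none had an unadjusted p below 0.05. In those comparisons the share of all probe sets called was 0.0% for salt in SOS1 and in the SOS1 interaction, 0.132% for salt in Colgl, 0.541% for salt in M6PR, and 1.24% and 3.13% for SOS1 against Colgl without and with salt. The changes ran from -0.38 ± 0.57 for SOS1 against Colgl without salt (95% interval -1.58 to 0.82) to 0.90 ± 0.57 for salt in SOS1 (95% interval -0.30 to 2.11). Each of the 6 intervals held a difference of 1 log2 unit in at least one direction. Of the 11 neighbouring pairs in the order of its levels, 7 overlapped, and the share over all probe sets was not counted.

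BSMT1, which makes methyl salicylate, was highest in salted Ws leaves, at 8.87 and 7.94, against 4.18 and 3.99 in unsalted Ws leaves. This difference of 4.32 ± 0.92 log2 units, 20.0-fold, chose the gene and carries no test here. It was 3.86 without Ws_100mM replicate 1. Detection calls were not used, so it was not checked whether the lower signals were above background. A filter that drops the dimmest 40% of probe sets kept all 3 genes. It keeps or drops a probe set as a whole, so it cannot decide this for the groups with low signal. Among all probe sets of an array, BSMT1 stood at percentiles 22.4 and 16.9 in Ws_0mM and 11.1 and 13.3 in Colgl_0mM.

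Replicates of BSMT1 spread widely in most other salted groups. In CBF3 it read 4.70 and 7.77 with salt, against 5.74 and 3.99 without. In Col it read 5.65 and 7.86 with salt, against 5.28 and 5.34 without, and the lower salted value is from the low-dap array. In M6PR it read 4.37 and 5.58 with salt, against 4.52 and 4.81 without. Groups overlapped in CBF3 and M6PR and did not in Col.

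In Colgl leaves BSMT1 was low, and in SOS1 it lay among the middle groups. SOS1 read 6.14 and 4.81 with salt, against 4.06 and 6.00 without. Colgl read 4.40 and 4.19 with salt, against 3.86 and 3.92 without. The salted and unsalted groups did not overlap in Colgl, where they lay 0.41 ± 0.92 apart, and overlapped in SOS1. Non-overlap of this kind was common, holding for 54.9% of all probe sets in Colgl and 73.6% in Col.

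The BSMT1 mean was higher with salt in all 6 genotypes, among them Ws, whose salt comparison chose the gene. The groups did not overlap in 3 of the 6. In CBF3, M6PR and SOS1 the change turned sign when 1 array was left out. How many probe sets rose in all 6 was not counted. Limma called BSMT1 in 0 of the 11 comparisons and interactions whose arrays its choice did not use. The share of all probe sets called in these ran from 0.0% for salt in SOS1 and the SOS1 interaction to 10.3% for M6PR against Col without salt and 20.9% for salt in Col. For BSMT1 the smallest adjusted p was 0.252 and none had an unadjusted p below 0.05. The estimate for salt in Col was 1.44 ± 0.92 (95% interval -0.52 to 3.40) and 2.55 ± 1.06 (adjusted p = 0.157) without the low-dap arrays, and 0.33 without Col_100mM replicate 2. For salt in CBF3 it was 1.37 ± 0.92 (95% interval -0.59 to 3.33), and -0.17 without CBF3_100mM replicate 2. For M6PR against Col with salt it was -1.77 ± 0.92 (95% interval -3.73 to 0.19), -2.88 without Col_100mM replicate 1, the low-dap array, and -0.67 without Col_100mM replicate 2. The SD of BSMT1 ran from 0.04 in Colgl_0mM to 2.17 in CBF3_100mM, which the pooled SE includes. Sharing the arrays of the choice, CBF3 minus Ws was -2.17 ± 0.92 with salt, with a range of -3.71 to -0.64 as each array was left out, and 0.78 ± 0.92 without salt. BSMT1 in SOS1 lay above Colgl without overlap at both salt levels, by 1.18 ± 0.92 with salt (49.0% of all probe sets did not overlap) and 1.14 ± 0.92 without (39.4%). Leaving out 1 SOS1 array gave 0.52 or 1.84 with salt and 2.11 or 0.18 without. In M6PR BSMT1 lay below Col without salt, by -0.65 ± 0.92 (56.2%).

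Across the 12 group means JMT and BSMT1 correlated with r = 0.13, JMT and ORA47 with r = -0.11, and BSMT1 and ORA47 with r = 0.52. These are descriptions over group means that share normalization and, within a background, growth. The genes whose group means most resembled each member were taken from 4176 single-gene probe sets with a range of at least 1 log2 unit, by Pearson's r over the 12 groups. Those 12 include the groups that chose each member, so the likeness rests in part on the values of the choice.

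**Figure D3:**
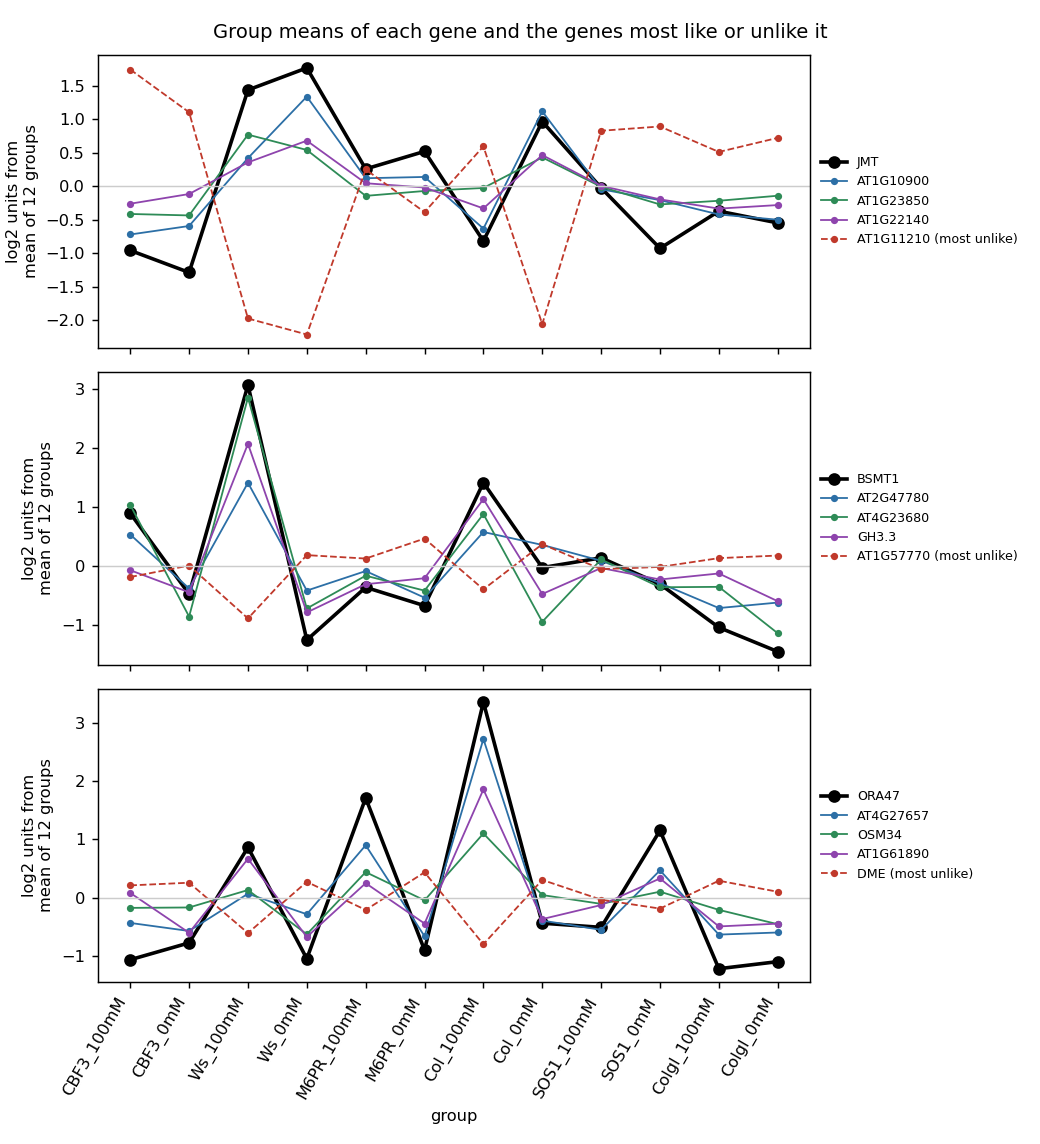
Group means of JMT, BSMT1 and ORA47 (black, one panel each), the 3 probe sets most like each (solid, thin) and the one most unlike it (dashed red), in log2 units from that gene's mean over 12 groups; lines join groups only to guide the eye. AT4G27657 tracked ORA47 (r = 0.95), and AT1G11210 mirrored JMT (r = -0.93).

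ORA47 was most like AT4G27657 (r = 0.95), OSM34, an osmotin-like gene (0.92), AT1G61890 (0.91), the calmodulin-like gene CML23 (0.91) and AT4G27654 (0.90). Like ORA47, all 5 had their highest group mean in Col_100mM, which the choice by likeness to ORA47 itself favours. There AT4G27657 averaged 7.78, against 4.66 in Col_0mM, and CML23 averaged 6.54, against 4.06. The least like were 2 probe sets of DME, a DNA glycosylase gene of active demethylation (r = -0.89 and -0.85), and AT5G35570 (-0.84).

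JMT was most like AT1G10900 (r = 0.91), AT1G23850 (0.90), AT1G22140 (0.90), AT4G22790 (0.89) and PPDK, for pyruvate orthophosphate dikinase (0.88). Its most unlike genes were AT1G11210 (-0.93), AT4G30650 (-0.92) and COR15B (-0.92), a chloroplast protein gene of the cold response. COR15B averaged 13.01 in CBF3_0mM and 7.44 in Ws_0mM, where JMT averaged 5.84 and 8.90, in a comparison that chose JMT. BSMT1 was most like AT2G47780 (0.96), AT4G23680 (0.93), GH3.3, which conjugates auxin (0.92), AT3G15357 (0.92) and CCR2, a cinnamoyl-CoA reductase gene (0.91). GH3.3 averaged 8.10 in Ws_100mM, against 5.24 in Ws_0mM, in the comparison that chose BSMT1. Most unlike BSMT1 were AT1G57770 (-0.88), AT5G28500 (-0.85) and the chloroplast gene psbE (-0.85).

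Few other listed entries of the jasmonate pathway were paired with a single-gene probe set. They were 3 of 20 for synthesis, 2 of 13 for turnover, 2 of 21 for signalling and 3 of 24 for responsive targets. In the table of probe genes 8730 probe sets had no gene, so the array may hold probe sets for the rest. All 8 lists were written with earlier results of these arrays known, so their counts of calls are a description. Calls of the listed genes were often lost when arrays were left out. Such a refit leaves 1 array in a group and can widen the SE, so a lost call need not mean a changed estimate. Of 48 calls, 35 were lost when at least 1 of the compared arrays, taken singly, was left out, and of the 28 that use Ws_100mM or Col_100mM directly in a two-group comparison, 15 held without the low-dap arrays. None changed sign in these refits.

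Among the synthesis genes, OPCL1, which activates a jasmonate precursor in the peroxisome, passed in 3 of the 15 comparisons and interactions. OPCL1 averaged 10.14 ± 0.02 in Col_100mM and 9.21 ± 0.13 in Col_0mM (SD, n = 2) and rose by 0.93 ± 0.20 (limma adjusted p = 0.00589), or by 0.94 (adjusted p = 0.0416) without the low-dap arrays and with adjusted p = 0.0592 without Col_0mM replicate 1. It averaged 7.63 ± 0.32 in CBF3_100mM and 8.94 ± 0.24 in Ws_100mM, and fell by 1.31 on the log2 scale (adjusted p = 0.00189), or by 1.14 (adjusted p = 0.0456) without the low-dap arrays. In both comparisons OPCL1 and ORA47 went the same way. In some other comparisons they did not. OPCL1 averaged 9.445 in SOS1_0mM and 9.432 in Colgl_0mM, where ORA47 differed by 2.25. It averaged 9.187 in M6PR_100mM and 9.352 in M6PR_0mM, where ORA47 differed by 2.61. In CBF3_0mM OPCL1 averaged 7.579, against 8.241 in Ws_0mM, where ORA47 differed by 0.27. The M6PR interaction of OPCL1 was -1.09 ± 0.29 (adjusted p = 0.0376, and 0.0999 without the low-dap arrays). In Ws with salt, where ORA47 was called, OPCL1 changed by 0.70 ± 0.20 and did not pass (adjusted p = 0.0642). AIM1 and DGL, the other measured synthesis genes, passed in none of the 15 comparisons and interactions.

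MYC4, a transcription factor freed by jasmonate, was high in Ws_0mM and Col_0mM, where JMT was high too. In Ws_100mM JMT was also high, with a mean of 8.57, while MYC4 averaged 6.60. MYC4 read 5.40 and 5.74 in CBF3_0mM, against 8.16 and 8.08 in Ws_0mM, and fell by 2.55 ± 0.35 (limma adjusted p = 0.000337). In M6PR_0mM it read 5.30 and 4.96, against 7.60 and 7.50 in Col_0mM, and fell by 2.42 ± 0.35 (adjusted p = 0.000577). JMT, in contrast, differed by only -0.45 ± 0.57 between those M6PR and Col groups. The background there was 10.3% of probe sets called, 4.87% higher and 5.44% lower.

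With salt MYC4 fell by 1.62 in Col (adjusted p = 0.00534) and by 1.52 in Ws (adjusted p = 0.022). Without the low-dap arrays it fell by 1.85 in Col (adjusted p = 0.0219), while in Ws the change of -1.25 did not pass (adjusted p = 0.215). The Colgl levels of MYC4 were 5.46 and 5.34 with salt, against 5.07 and 4.90 without, and did not pass. The M6PR interaction for MYC4 was 2.07 ± 0.49 (adjusted p = 0.0241, and 0.0505 without the low-dap arrays), with 6.08% of probe sets called. MYC3, a close relative of MYC4, passed in none of the 15.

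Of the turnover genes, JRG21, for an oxygenase that inactivates jasmonate, read 7.94 and 7.06 in Ws_100mM, against 4.65 and 4.74 in Ws_0mM, and rose by 2.80 ± 0.70 (limma adjusted p = 0.0338). It stood at 2.36 and did not pass without the low-dap arrays (adjusted p = 0.291). Among the targets, the defensin gene PDF1.2 read 6.90 and 6.71 in Col_100mM, against 10.8 and 10.4 in Col_0mM, and fell by 3.79 on the log2 scale (adjusted p = 0.0138). PDF1.2 stood at -3.89 and did not pass without the low-dap arrays (adjusted p = 0.0816), nor did it with any 1 Col array left out. The near-identical defensin gene PDF1.2b fell by 3.58 ± 0.79 with salt in Col (adjusted p = 0.00585, and 0.0426 without the low-dap arrays), and signal of such paralogs may be shared between probe sets. ORA47 and these defensin genes went opposite ways there. In Colgl PDF1.2 was also lower with salt, at 7.11 and 7.44, against 10.5 and 10.4, a change of -3.18 ± 0.98 that did not pass (adjusted p = 0.519), while ORA47 differed there by -0.12 ± 0.42.

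**Figure D4:**
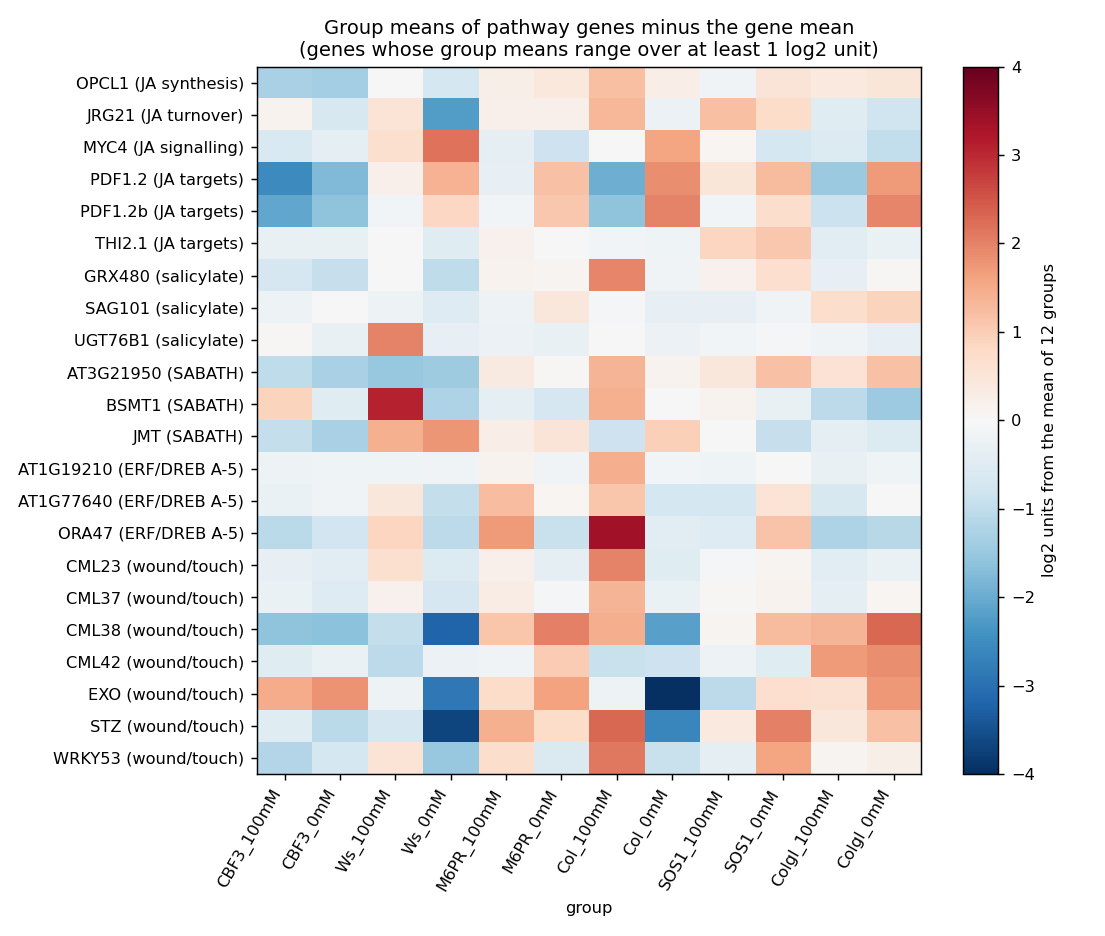
Group means (columns) of the 22 listed genes (rows, list in brackets) whose 12 group means range over at least 1 log2 unit, as log2 units from the gene's mean, red higher and blue lower. In the Col_100mM column ORA47 stands red beside WRKY53, STZ, CML23 and GRX480, and PDF1.2 stands blue.

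Of 23 SABATH methyltransferase genes 15 were paired with a single-gene probe set, JMT and BSMT1 among them. The other 13 held 1 call over all 12 two-group comparisons and 3 interactions: AT3G21950 rose with salt in Col, to 7.51 and 6.73 in Col_100mM, against 5.96 and 5.83 in Col_0mM (1.22 ± 0.30, limma adjusted p = 0.0106). It stood at 0.83 and did not pass without the low-dap arrays (adjusted p = 0.157). With salt in Col, where 20.9% of all probe sets were called, the median change of these 13 was -0.13, beside -0.12 for all probe sets. In the salt comparison of Ws, which chose BSMT1, the 13 had 0 calls, against 4.71% of all probe sets, and a median of -0.05, beside -0.03 for all.

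The 6 measured relatives of ORA47 in its DREB subgroup had 3 calls, all higher, with salt in Col, where 10.1% of all probe sets were called higher, and a median change of 0.48, beside -0.12 for all probe sets. AT1G77640 rose by 1.79 ± 0.47, AT1G19210 by 1.55 ± 0.21 and AT1G44830 by 0.76 ± 0.25 (limma adjusted p = 0.0143, 0.000453 and 0.0413). Without the low-dap arrays AT1G19210 rose by 1.18 (adjusted p = 0.00743), while AT1G77640 at 1.77 and AT1G44830 at 0.31 did not pass (adjusted p = 0.0897 and 0.236). AT1G19210 read 6.46 and 5.73 in Col_100mM, while its mean was 4.35 to 4.79 in the other 11 groups. In M6PR_100mM it was lower than in Col_100mM, by -1.31 ± 0.21 (adjusted p = 0.0163, and 0.11 at -0.94 without the low-dap arrays), in a comparison with 0.528% of probe sets called, 0.356% lower. ORA47 differed there by -1.65 ± 0.42. The M6PR interaction of AT1G19210 was -1.27 ± 0.29 (adjusted p = 0.0217, and 0.088 without the low-dap arrays).

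The rapid wound and touch list had 7 of 32 entries paired with a single-gene probe set. This list too was written with earlier results of these arrays known, so its counts are a description. With salt in Col it had 6 calls, all higher, and a median change of 3.0. Of all probe sets 10.1% were called higher there. STZ, a zinc finger gene, rose by 4.90 ± 0.62, the expansion-related gene EXO by 4.07 ± 0.97, the calmodulin-like gene CML38 by 3.62 ± 0.92 and WRKY53, for a factor active in defence and leaf ageing, by 3.0 ± 0.42 (limma adjusted p = 0.000297, 0.00905, 0.0123 and 0.000567). Without the low-dap arrays STZ, EXO and WRKY53 stood at 5.25, 4.59 and 3.23 and passed, while CML38 at 3.51 did not (adjusted p = 0.0885). With salt in Ws 3 of 7 rose, against 2.62% of all probe sets: WRKY53 by 2.06 ± 0.42, STZ by 3.01 ± 0.62 and CML37 by 0.87 ± 0.22 (adjusted p = 0.0127, 0.0128 and 0.0355). Without the low-dap arrays WRKY53 and STZ passed there at 2.45 and 3.51, and CML37 did not (adjusted p = 0.12). WRKY53 read 5.17 and 5.11 in CBF3_100mM, against 6.45 and 7.23 in Ws_100mM, and fell by 1.70 ± 0.42 (adjusted p = 0.0357, and 0.0662 at -2.10 without the low-dap arrays), where ORA47 changed by -1.93.

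The list and ORA47 did not move together everywhere. In M6PR_0mM against Col_0mM 4 of the 7 genes rose, against 4.87% of all probe sets, with a median of 1.84. ORA47 stood there at -0.46 ± 0.42. EXO rose there by 5.88 ± 0.97, CML38 by 4.17 ± 0.92, STZ by 3.32 ± 0.62 and CML42 by 1.84 ± 0.52 (limma adjusted p = 0.00134, 0.00794, 0.00283 and 0.0321). CML38 and CML42 lost their calls with any 1 of the 4 arrays left out, at 4.10 to 4.25 and 1.63 to 2.04. In CBF3_0mM against Ws_0mM 2 of 7 rose, against 3.2% of all probe sets, EXO by 4.66 ± 0.97 and STZ by 2.59 ± 0.62 (adjusted p = 0.00859 and 0.0193), while ORA47 stood at 0.27 ± 0.42. In SOS1_0mM against Colgl_0mM, which chose ORA47 for a higher signal, CML42 was the 1 call, where 1.24% of all probe sets were called. CML42 was lower by -2.34 ± 0.52 (limma adjusted p = 0.0394), and the median of the 7 was 0.06. Its change ran from -3.47 to -1.20 as each array was left out. The call was lost without the low-dap arrays, which are in neither group. The M6PR interaction had 4 of 7 lower, against 2.81% of all probe sets: EXO at -4.93 ± 1.37, STZ at -4.20 ± 0.87, CML23 at -1.92 ± 0.48 and CML37 at -1.30 ± 0.31 (adjusted p = 0.0465, 0.014, 0.0287 and 0.0244). Without the low-dap arrays STZ kept its call there (adjusted p = 0.0377) and EXO, CML23 and CML37 did not (adjusted p = 0.0963, 0.107 and 0.094). For M6PR_100mM against Col_100mM, where ORA47 differed by -1.65, CML23 fell by 1.79 ± 0.34 and CML37 by 1.07 ± 0.22 (adjusted p = 0.0326 and 0.0454), and both were lost without the low-dap arrays (adjusted p = 0.231 and 0.275).

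On the salicylate side 4 of 32 entries were paired with a single-gene probe set. UGT76B1, a glucosyltransferase that acts on salicylate, shared the salted Ws maximum with BSMT1. It read 5.22 and 7.15 in Ws_100mM, against 3.67 and 4.10 in Ws_0mM, and rose by 2.30 ± 0.43 (limma adjusted p = 0.00844). The rise was 3.26 without Ws_100mM replicate 1, a low-dap array, and 1.33 without replicate 2, and its highest adjusted p, 0.106, came without Ws_0mM replicate 1. In CBF3_100mM UGT76B1 read 3.77 and 4.75 and fell by 1.92 ± 0.43 relative to Ws_100mM (adjusted p = 0.0225). That change was -2.89 without Ws_100mM replicate 1 and -0.96, no longer called, without replicate 2, and the call was also lost without CBF3_100mM replicate 1 (-1.43, adjusted p = 0.24).

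GRX480, a glutaredoxin gene of salicylate signalling, rose with salt in Col by 2.09 ± 0.34 (limma adjusted p = 0.00122), or by 1.73 (adjusted p = 0.0207) without the low-dap arrays, where BSMT1 stood at 1.44 ± 0.92. GRX480 fell by 1.83 ± 0.34 in M6PR_100mM against Col_100mM, and its M6PR interaction was -2.09 ± 0.48 (adjusted p = 0.029 and 0.021, and 0.238 and 0.0864 without the low-dap arrays). SAG101, a partner of immune receptors, was lower in SOS1 than in Colgl with salt, by -1.02 ± 0.21, and without salt, by -1.04 ± 0.21 (adjusted p = 0.0169 and 0.0289), where BSMT1 stood at 1.18 ± 0.92 and 1.14 ± 0.92. The SAG101 change without salt ran from -1.46 to -0.62 as each array was left out, the latter without SOS1_0mM replicate 1. With salt it ran from -1.27 to -0.77. Each of these calls was lost in 3 of the 4 refits. In M6PR_0mM against Col_0mM SAG101 rose by 0.81 ± 0.21 (adjusted p = 0.0228), and lost the call with any 1 of the 4 arrays left out. UGT74F1, which glucosylates salicylate, passed in none of the 15.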

How the data were processed

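Values are the log2 expression signals the authors deposited. Per the submitters' processing notes GCOS and RMA made them; their versions and settings are not given here. RMA equalizes probe intensities before it summarizes probe sets, which would shrink a shift common to most genes; array medians of the deposited values still ran from 5.77 to 6.09. Of 22810 probe sets, 64 controls were left out. In the table of probe genes 13513 probe sets had 1 gene, 503 several and 8730 none, and 13436 matched a RefSeq table of assembly TAIR10.1 by gene ID. No coordinates or sequences were used. Groups follow titles and characteristics; the free-text descriptions of CBF3 and M6PR samples give each other's background and were not followed.

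All 24 arrays entered a single limma 3.58.1 fit (R 4.3.3) with a mean for every group, 12 residual and 3.11 prior degrees of freedom, two-sided, adjusted within each of 12 two-group comparisons and 3 interactions. Members and the 8 gene lists (181 entries, 43 probe sets) were chosen with earlier results of these data known. List genes were named where called, up to 4 per list and comparison by size of change; the 5 most and 3 least alike genes were named per member. The fit was tested on simulated data. Alternatives were quantile normalization, median centring, no dim 40% of probe sets, a fit per background, array weights, a replicate block, no low-dap arrays and each array left out.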

Additional observations from a re-analysis of the deposited data

Results flagged for a closer look

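Effects that went opposite ways without overlap between arrays are listed here, each as the difference between the largest rise and the largest fall; these differences were not tested. Such a pattern held for 46.4% of all probe sets in the salt comparisons, 26.7% in those of a line without salt and 21.4% in those of a line with salt. For salt, ORA47 in Col (3.79) and SOS1 (-1.66) differed by 5.45, and JMT in Colgl (0.18) and Col (-1.78) by 1.96. For a line against its wild type without salt, ORA47 in SOS1 (2.25) and M6PR (-0.46) differed by 2.71, and BSMT1 in SOS1 (1.14) and M6PR (-0.65) by 1.79. With salt, JMT in M6PR (1.08) and CBF3 (-2.40) differed by 3.47, BSMT1 in SOS1 (1.18) and CBF3 (-2.17) by 3.35, and ORA47 in SOS1 (0.71) and CBF3 (-1.93) by 2.64.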

How the results depend on the processing

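Over 24 tested differences of the 3 genes, the alternatives that leave out no single array kept direction and call in 165 values, ended a call in 2 and gained one in 1, and leaving out 1 array did so in 94, turned the sign in 11, ended a call in 6 and gained one in 1. A separate fit per background ended the ORA47 calls for salt in Ws (1.91, adjusted p = 0.138) and CBF3 against Ws with salt (-1.93, adjusted p = 0.138), with fewer arrays in the fit. Without the 2 low-dap arrays, which leaves 1 array in Ws_100mM, the CBF3 interaction of ORA47 was -3.21. With each array left out, a lone array being assumed to vary like the other groups, ORA47 ran from 0.89 to 2.92 for salt in Ws, from -2.94 to -0.91 for CBF3 against Ws with salt and from -3.21 to -1.18 for the CBF3 interaction. Uncalled changes of BSMT1 turned sign: salt in CBF3 (-0.17 to 2.90), M6PR (-0.29 to 0.91) and SOS1 (-0.52 to 1.41), and the SOS1 interaction (-0.93 to 1.01). So did JMT for salt in M6PR (-0.76 to 0.24), SOS1 against Colgl with salt (-0.45 to 1.14) and the SOS1 interaction (-0.066 to 1.52). Same-numbered replicates were checked for pairing, and the correlation of their differences ran from -0.357 to 0.551 over the 12 comparisons. It was highest for salt in M6PR (0.551) and in CBF3 (0.49). The fit assumed no pairing, and pairing within a genotype was not tested. The replicate block, 1 term shared by all groups, changed none of these calls. With it ORA47 with salt in Col stayed at 3.79 ± 0.43 (limma adjusted p = 0.000255). For listed genes, the same alternatives were added after seeing the data. Without the low-dap arrays 27 of their 48 calls held. Results without those arrays are given above for the named calls that use them.

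Counts of all called probe sets moved by over 1.5 times. They ran from 463 to 3780 (1545 in the fit used) for CBF3 against Ws without salt, 278 to 1367 (848) with salt, 944 to 5332 (2346) for M6PR against Col without salt, 10 to 3720 (120) with salt, 8 to 4439 (281) for SOS1 against Colgl without salt and 88 to 1483 (713) with salt. For salt they ran from 123 to 2494 (1072) in Ws, 0 to 83 (2) in CBF3, 1409 to 8076 (4764) in Col, 11 to 375 (123) in M6PR, 0 to 1519 (30) in Colgl and 0 to 3787 (0, with 1694 at an unadjusted p below 0.05) in SOS1. For the interactions they ran from 3 to 474 (16) for CBF3, 150 to 3860 (1382) for M6PR and 0 to 661 (0, with 672 at an unadjusted p below 0.05) for SOS1. Centring each array moved the calls to 74 higher and 45 lower (39 and 81 as deposited) for M6PR against Col with salt and 76 and 413 (81 and 200) for SOS1 against Colgl without salt, 34 and 149 (37 and 86) for salt in M6PR, and 7 and 10 (4 and 12) for the CBF3 interaction. It moved the median change of all probe sets by over 0.1 to 0.23 (0.05) for M6PR against Col with salt, 0.14 (0.04) for CBF3 against Ws with salt, -0.13 (-0.03) for salt in Ws, and 0.15 (0.04) and 0.26 (0.10) for the CBF3 and M6PR interactions. The background shares of called probe sets carry that uncertainty.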

Other observations

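AT3G21950, a SABATH family gene, read 4.24 to 4.87 on the 8 arrays of the Ws background and 5.32 to 7.51 on the 16 arrays of both Columbia backgrounds, without overlap. Of the 43 list probe sets 1 separated the backgrounds in this way, as did 2.17% of all probe sets. The separation was seen after the values were known and was not tested.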
